A study of Mus musculus with 6 samples.

Results

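The 10 genes described here belong to the integrated stress response: the transcription factors Atf4 and Ddit3, the regulators Trib3, Chac1 and Sesn2, the amino acid enzyme Asns, and the serine and one-carbon enzymes Phgdh, Psat1, Shmt2 and Mthfd2. They were taken as a given list, drawn up with earlier results of these data known, and found by symbol among the 53953 rows of each expression table. All 10 were present, and all 10 passed the filter on low values that left 12913 genes to test. The 6 libraries were made from organoids grown out of crypts of the proximal small intestine of C57BL/6 wild-type mice, kept in Matrigel and used at passage 3 to 5. In the vehicle group (n = 3) the cultures received 0.1% ethanol, and in the arachidonic acid group (n = 3) they received the fatty acid dissolved in 0.1% ethanol, so the solvent was common to both groups. Exposure lasted 3 days and was followed by passage, and RNA was taken on day 3 after passaging. Its concentration, and whether it was present after the passage, were not given in the sources used here. The labels do not tie the libraries to separate animals or cultures, so the p-values refer to spread among libraries that may be technical replicates. Such organoids hold epithelium only.

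The integrated stress response starts with kinases that each sense a different stress (heme lack or mitochondrial stress, double-stranded RNA, endoplasmic reticulum stress, amino acid lack) and phosphorylate the translation factor eIF2. Most protein synthesis then slows, while the Atf4 mRNA is translated more, because short upstream reading frames otherwise hold ribosomes back from it. The mRNA level of Atf4 is therefore an incomplete measure of ATF4 protein, and the mRNAs of its target genes are the usual transcriptional readout. In the intestinal epithelium the pathway serves secretory cells with a heavy protein load and cells short of amino acids.

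ATF4 binds DNA as a dimer, often with a C/EBP protein, at a composite site called the C/EBP-ATF response element, here written TGATGNAA (TTNCATCA on the other strand). That motif was searched on both strands in a window from 250 bases before to 50 bases after the RefSeq start of each gene (300 bases, mouse build GRCm38.p6), where position 1 is the first transcribed base. It was present for 3 of the 10 genes (30.0%), for 16 of the 57 other pathway genes that have an entry (28.1%), and for 1219 of 27025 genes of all kinds (4.51%). The promoters of Chac1 (chr2:119350992-119351228, plus strand) and of the cystine transporter gene Slc7a11 (chr3:50443615-50443863, minus strand), the gene with the largest rise on the pathway lists, are shown upstream of the start, with matches in capitals.
Chac1: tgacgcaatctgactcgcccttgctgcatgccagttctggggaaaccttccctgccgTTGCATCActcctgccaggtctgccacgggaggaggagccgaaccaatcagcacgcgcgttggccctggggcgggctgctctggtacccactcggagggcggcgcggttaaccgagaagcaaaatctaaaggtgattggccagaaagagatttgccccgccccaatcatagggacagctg
Slc7a11: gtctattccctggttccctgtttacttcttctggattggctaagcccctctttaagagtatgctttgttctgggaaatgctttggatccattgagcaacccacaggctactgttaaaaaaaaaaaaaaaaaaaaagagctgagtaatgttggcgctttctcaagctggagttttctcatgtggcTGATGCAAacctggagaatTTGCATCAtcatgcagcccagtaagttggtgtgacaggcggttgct
The match in Chac1 began at position -193, and the 2 matches in Slc7a11 began at positions -66 and -47. The other members with a match were Asns (chr6:7693214-7693243, minus strand), where it began at position -23, and Trib3 (chr2:152344028-152344057, minus strand), where it began at position 15. These 30-base stretches are shown with 3 from other pathway genes described below, Atf3 (chr1:191183425-191183454, minus strand), Got1 (chr19:43524689-43524718, minus strand) and Gars1 (chr6:55037960-55037989, plus strand).
Asns: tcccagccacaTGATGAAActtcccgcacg
Trib3: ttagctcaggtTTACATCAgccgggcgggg
Atf3: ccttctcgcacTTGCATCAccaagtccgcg
Got1: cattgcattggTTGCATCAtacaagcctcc
Gars1: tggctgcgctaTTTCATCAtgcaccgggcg
No match was found in these windows for Atf4, Ddit3, Psat1, Phgdh, Shmt2, Mthfd2 or Sesn2. A match is a string of letters and not a measured binding site. The 4 genes shown from outside the members were all called higher with arachidonic acid in the test below, as were Slc1a4, Aars1 and Vldlr, which also have a match. Nupr1, Jdp2, Pycr1, Pck2, Iars1, Tars1, Yars1 and Herpud1 have a match and were not called with all 6 libraries. Fgf21 has a match and was not tested. Whether a match goes with a rise was not tested.

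The values are FPKM, a measure scaled for transcript length and for library size, which can be compared between genes. The depth implied by the values was 35.6 to 50.8 M fragments per library, and 350 to 14521 fragments lay behind each value of a member. Among all tested genes, 2690 of 12913 (20.8%) were higher and 2502 (19.4%) were lower with arachidonic acid, 40.2% in either direction (limma on log2(FPKM + 1), Benjamini-Hochberg adjusted p below 0.05), and the median log2 fold change was -0.03. Without arachidonic acid replicate 1, which stood apart from the other 2 libraries of its group, 3554 of 12947 genes (27.5%) were higher and 4192 (32.4%) lower, 59.8% in either direction. Of 6 epithelial markers 3 were higher and 1 lower, with a summed level of 2844 to 2970 FPKM in the vehicle libraries and 4271 to 5171 FPKM with arachidonic acid. Of 12 intestinal lineage markers 9 were tested. Of these, 1 was higher (Alpi) and 6 were lower (Olfm4, Tff3, Lyz1, Defa24, Chga and Chgb), and Lgr5 and Fabp2 were not called. The summed level of the 12 went from 2468 to 3419 FPKM with vehicle to 849 to 1446 FPKM with arachidonic acid. Defa24 alone went from 1276 ± 307 to 301 ± 64.6 FPKM. None of 10 fibroblast, immune, endothelial and pericyte markers passed the filter, none exceeded 0.973 FPKM in a library, and Cdh5 was at 0 throughout. In such bulk libraries fewer cells of a type and less RNA per cell cannot be told apart, and the part of the lineage shift in the results below was not tested.

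Ddit3 was the only 1 of the 10 genes called higher with all 6 libraries, where 20.8% of all tested genes were, and no member was called lower, where 19.4% were. The log2 fold change was positive for 9 of the 10, with a median of 0.30 against -0.03 over all tested genes, and 2 members had an unadjusted p below 0.05. With 10 genes, a count of 1 is not read here as a departure from the share over all tested genes. The arachidonic acid libraries also differed among themselves. Replicates 2 and 3 both lay above every vehicle library for 7 members (Ddit3, Trib3, Chac1, Asns, Psat1, Shmt2 and Sesn2), where the share over all tested genes was 34.0%. Replicate 1 had the lowest value of its group for all 10 members. The share of all tested genes with that order was not computed. The order was not particular to the members, since every listed NRF2 target and p53 target had it too. Replicate 1 was above the vehicle range for 2 of the 10 members, within it for 4 and below it for 4. It was within or below that range for 59.6% of all tested genes.

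**Figure D1:**
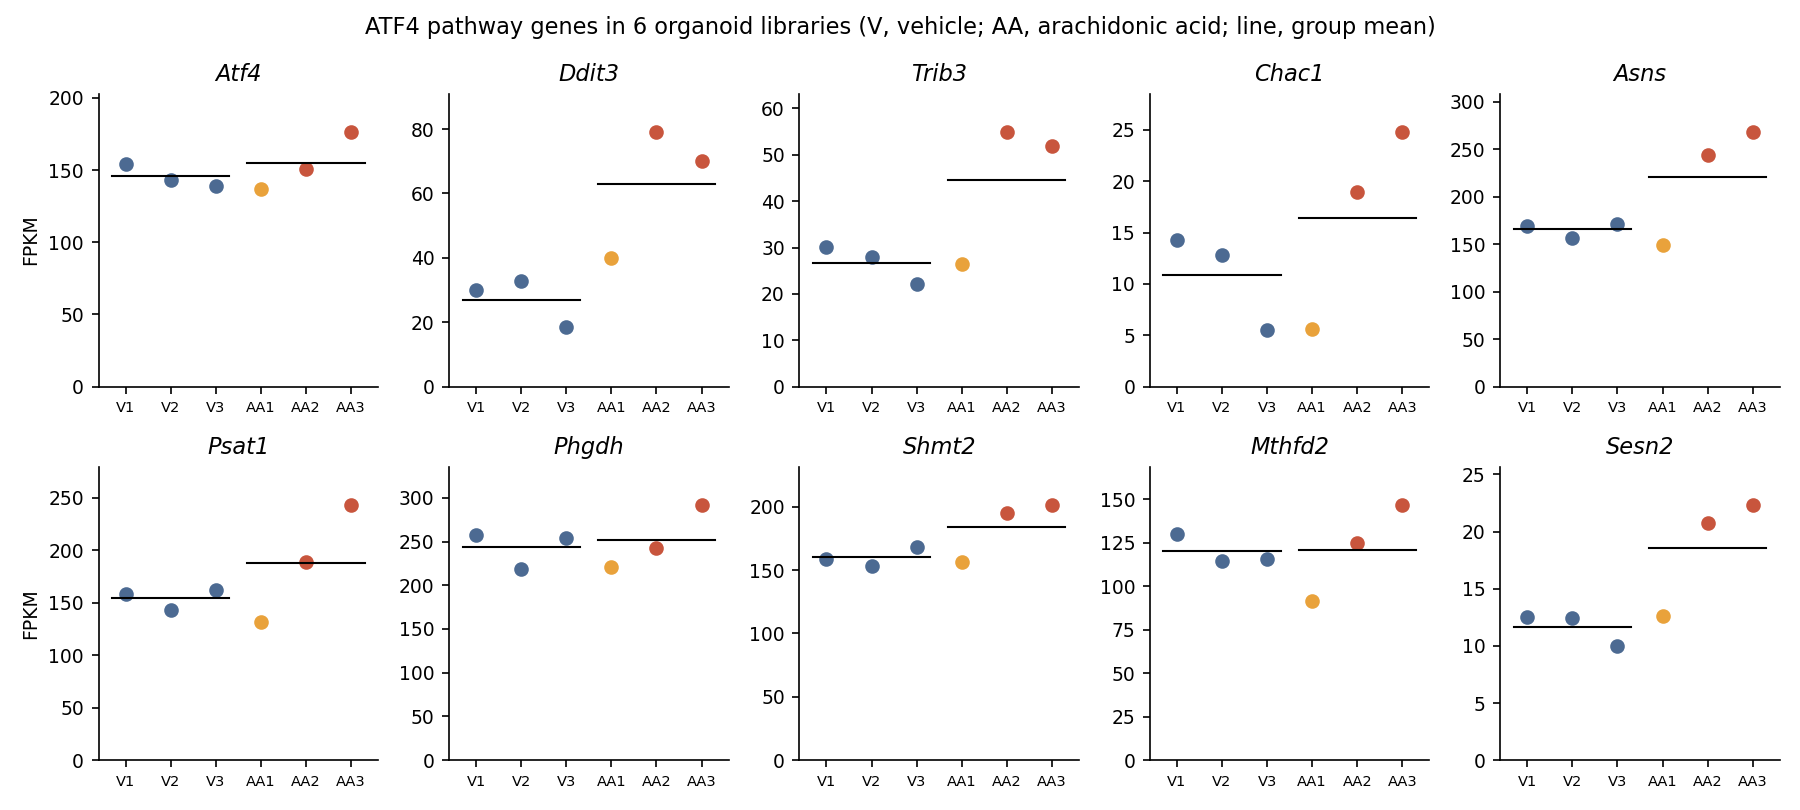
FPKM of the 10 genes (y axis, linear from 0) in each of the 6 libraries (x axis), 1 panel per gene, with vehicle libraries V1 to V3 in blue, arachidonic acid replicate 1 in orange and replicates 2 and 3 in red, and a line at each group mean. Arachidonic acid replicate 1 is the lowest point of its group in all 10 panels, and the groups separate only for Ddit3 and Sesn2.

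Atf4 (ENSMUSG00000042406), the factor at the centre of the pathway, was abundant, and its mRNA was not called different between the groups. It measured 154, 143 and 139 FPKM in vehicle replicates 1 to 3 and 137, 151 and 177 FPKM in arachidonic acid replicates 1 to 3. Only the third arachidonic acid library lay above all vehicle libraries and the first lay below them, so the groups overlapped. The means were 146 ± 7.81 and 155 ± 20.2 FPKM (SD, n = 3 each), the log2 fold change was 0.08 (SE 0.10, 95% interval -0.16 to 0.32) and the adjusted p was 0.555.

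Ddit3 (ENSMUSG00000025408) encodes CHOP, a transcription factor induced by ATF4 that promotes cell death under lasting stress. It was at 30.0, 32.7 and 18.5 FPKM with vehicle and at 39.9, 79.2 and 70.0 FPKM with arachidonic acid. Every arachidonic acid library was above every vehicle library, replicate 1 by the smallest margin. The means of 27.1 ± 7.55 and 63.0 ± 20.5 FPKM (SD, n = 3 each) gave a log2 fold change of 1.17 (SE 0.30, interval 0.45 to 1.89), with an adjusted p of 0.0223. The call was lost when vehicle replicate 1 (adjusted p = 0.0594), vehicle replicate 3 (0.0676) or arachidonic acid replicate 2 (0.0696) or 3 (0.0742) was left out. It was also lost when the fit and the adjustment of p covered all rows, without the filter on low values (0.196). It was kept without vehicle replicate 2 (0.0421) and without arachidonic acid replicate 1 (0.000574).

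Trib3 (ENSMUSG00000032715), a pseudokinase that is a target of ATF4 and CHOP and restrains them in turn, was at 30.0, 28.0 and 22.2 FPKM with vehicle and at 26.6, 55.0 and 52.0 FPKM with arachidonic acid. Replicates 2 and 3 of the treated group were clear of the vehicle libraries, and replicate 1 sat inside the vehicle range. The log2 fold change was 0.66 (SE 0.28, interval -0.0011 to 1.32) with an adjusted p of 0.0984.

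Chac1 (ENSMUSG00000027313), which encodes an enzyme that degrades glutathione and is a target of ATF4, was the member with the widest relative spread inside the groups. The levels of Chac1 were 14.3, 12.9 and 5.55 FPKM with vehicle and 5.57, 18.97 and 24.8 FPKM with arachidonic acid. Vehicle replicate 3 and arachidonic acid replicate 1 thus had nearly the same low level, and the other treated libraries were the highest of the 6. The log2 fold change of 0.43 (SE 0.56, adjusted p = 0.56) had an interval from -0.89 to 1.75, which leaves a change in either direction possible.

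Sesn2 (ENSMUSG00000028893) encodes a leucine-sensing protein that holds down mTORC1 signalling and is a target of several stress factors. It was at 12.6, 12.4 and 9.95 FPKM with vehicle and at 12.6, 20.7 and 22.3 FPKM with arachidonic acid. All treated libraries were above all vehicle libraries, but replicate 1 exceeded vehicle replicate 1 only in the second decimal. Groups without overlap in that direction made up 27.6% of all tested genes. The log2 fold change was 0.60 (SE 0.21, interval 0.09 to 1.10) and the adjusted p was 0.0631, and it was 0.0484 after the FPKM were rescaled to a common sum (TPM).

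Asns (ENSMUSG00000029752) makes asparagine from aspartate and is the classic amino acid response gene. Vehicle libraries gave 169, 157 and 172 FPKM, and arachidonic acid libraries gave 149, 244 and 268 FPKM. Treated replicate 1 was the lowest of all 6 libraries and replicates 2 and 3 were the highest. The means of 166 ± 7.74 and 220.3 ± 63.0 FPKM (SD, n = 3 each) differed by a log2 fold change of 0.36 (SE 0.21, interval -0.13 to 0.86, adjusted p = 0.199).

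The enzymes that make serine and pass its carbon to mitochondrial folate were among the most abundant members. Phgdh (ENSMUSG00000053398), which catalyses the committing step of serine synthesis, was at 258, 218 and 255 FPKM with vehicle and at 221, 242 and 292 FPKM with arachidonic acid. The groups overlapped, with treated replicate 3 alone above every vehicle library (log2 fold change 0.04, SE 0.12, interval -0.24 to 0.32, adjusted p = 0.795). Psat1 (ENSMUSG00000024640), the next enzyme of that route, was at 159, 143 and 162 FPKM with vehicle and at 131, 189 and 243 FPKM with arachidonic acid. The treated libraries spanned both the lowest and the highest values of the 6, with a log2 fold change of 0.24 (SE 0.21, interval -0.26 to 0.73, adjusted p = 0.388).

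Shmt2 (ENSMUSG00000025403), which splits serine to glycine and a folate-bound carbon in mitochondria, was at 158, 153 and 168 FPKM with vehicle and at 156, 195 and 201 FPKM with arachidonic acid. Replicate 1 lay inside the vehicle range and replicates 2 and 3 lay above it (log2 fold change 0.19, SE 0.11, interval -0.06 to 0.45, adjusted p = 0.179). Mthfd2 (ENSMUSG00000005667), which oxidises that carbon unit in the same compartment, was at 130.0, 115 and 115 FPKM with vehicle and at 91.5, 125 and 147 FPKM with arachidonic acid. Replicate 1 was the lowest of the 6 libraries and replicate 3 the highest, and the group means were close (120.0 ± 8.65 and 121 ± 27.7 FPKM, SD, n = 3 each, log2 fold change -0.01, interval -0.41 to 0.38, adjusted p = 0.957).

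**Figure D2:**
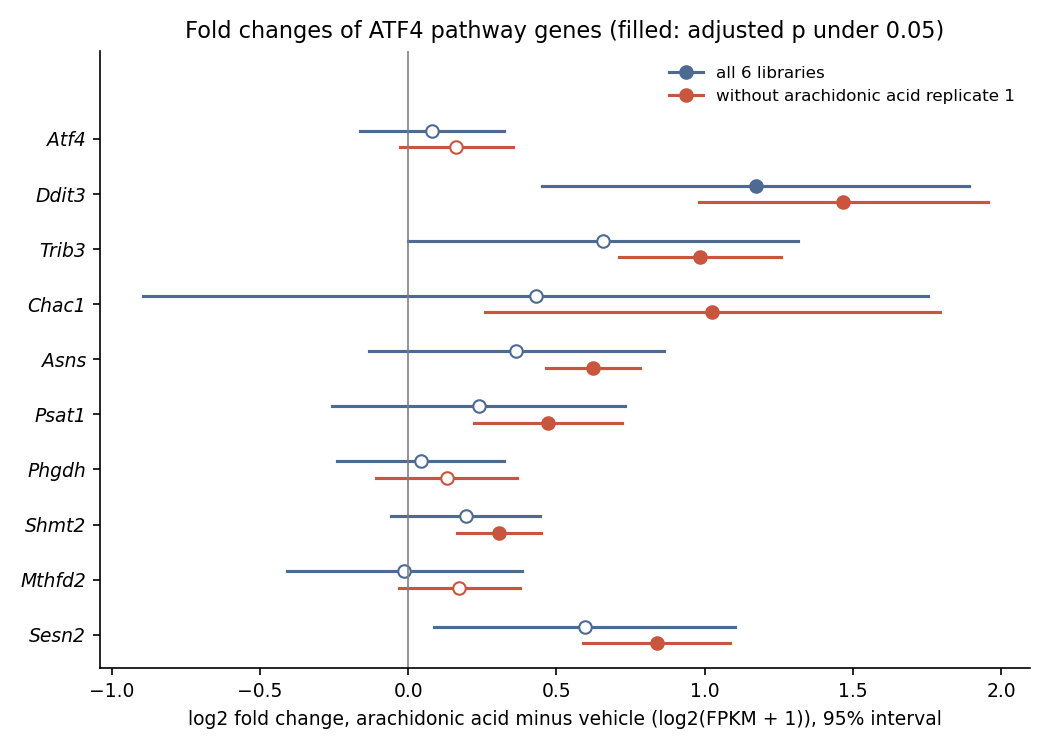
Log2 fold change of arachidonic acid over vehicle on log2(FPKM + 1) for each of the 10 genes, with 95% intervals from limma, for all 6 libraries (blue) and without arachidonic acid replicate 1 (red), filled where the adjusted p is below 0.05. Ddit3 alone is filled with all 6 libraries, and 7 genes are filled without replicate 1.

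Without arachidonic acid replicate 1, 7 of the 10 genes were called higher (70.0%), where 27.5% of all tested genes were, and the median log2 fold change of the members was 0.55. Those 7 were the members whose replicates 2 and 3 had both exceeded the vehicle range. Ddit3 then stood at 2.76 times the vehicle mean (log2 fold change 1.47, adjusted p = 0.000574), Chac1 at 2.01 times (1.03, adjusted p = 0.0282) and Trib3 at 2.0 times (0.98, adjusted p = 0.00022). Sesn2 was at 1.85 times (0.84, adjusted p = 0.000315), Asns at 1.54 times (0.62, adjusted p = 0.000135), Psat1 at 1.4 times (0.47, adjusted p = 0.00618) and Shmt2 at 1.24 times (0.31, adjusted p = 0.00313). Atf4 (0.16, adjusted p = 0.118), Phgdh (0.13, adjusted p = 0.301) and Mthfd2 (0.17, adjusted p = 0.123) did not pass in that fit either. The library was left out in turn with the other 5, and leaving out any of those gave 0 or 1 member called. Replicate 1 had the lowest value of its group for all 10 members, so leaving it out had to raise each fold change. Calls without replicate 1, here and for the lists below, are therefore a description and no separate support for a rise. With 2 treated libraries that fit rests on fewer samples, and what sets replicate 1 apart was not tested.

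Replicate 1 was above the vehicle range for most other genes that were high in replicates 2 and 3. Over all tested genes, 4389 had treated replicates 2 and 3 both above the vehicle range, and replicate 1 was not above it for 827 of them (18.8%, or 6.40% of all tested genes), against 5 of the 7 such members. The share was also above that of all genes in other genes of the pathway, at 19 of 45 over the 7 lists described below. That share differed between the lists. It was 7 of 11 for stress outputs, 4 of 5 for amino acid synthesis genes and 4 of 9 for tRNA synthetase genes. For partner factors it was 2 of 3, and for serine and one-carbon genes 2 of 5. For the eIF2 genes it was 0 of 6, and for amino acid transporters also 0 of 6. For all 6 listed NRF2 targets and all 5 listed p53 targets, replicate 1 lay above every vehicle library. The depth of replicate 1, implied at 50.8 M fragments, was the highest of the 6 libraries, and that of replicate 3 was 48.6 M. Whether depth goes with the difference between replicates was not tested. The mitochondrially encoded share of the fragments was 2.66% in replicate 1 and 2.42% and 2.21% in replicates 2 and 3. It was 3.49%, 4.17% and 3.18% in vehicle replicates 1 to 3.

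In the vehicle libraries the order of mean levels was Phgdh (244 FPKM), Asns (166 FPKM), Shmt2 (160.0 FPKM), Psat1 (154 FPKM), Atf4 (146 FPKM), Mthfd2 (120.0 FPKM), Ddit3 (27.1 FPKM), Trib3 (26.7 FPKM), Sesn2 (11.7 FPKM) and Chac1 (10.9 FPKM). The ranges of Asns, Shmt2, Psat1 and Atf4 overlapped from each gene to the next, as did those of Ddit3 with Trib3 and of Sesn2 with Chac1. Atf4, Asns and the serine and one-carbon enzymes thus sat on a plateau above 100 FPKM in the vehicle libraries, and the other members lay well below it. Vehicle replicate 3 was the lowest vehicle library for 5 members. The genes whose profile over the 6 libraries was most like that of Atf4, by root mean square difference of log2(FPKM + 1) from the vehicle mean, were Irf2bpl (0.0344), Mllt6 (0.0451) and Ndufaf2 (0.0498), out of 9906 genes compared. None of these was a pathway gene on the lists, and none was called.

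Of 73 other genes of the pathway, on 7 lists grouped by role, 70 were tested: 22 were called higher (31.4% against 20.8% of all tested genes) and 8 lower (11.4% against 19.4%), with a median log2 fold change of 0.20. Without treated replicate 1, 41 of 71 were higher (57.7% against 27.5%) and 11 lower (15.5% against 32.4%). The lists differed in how many members were called and in which direction.

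**Figure D3:**
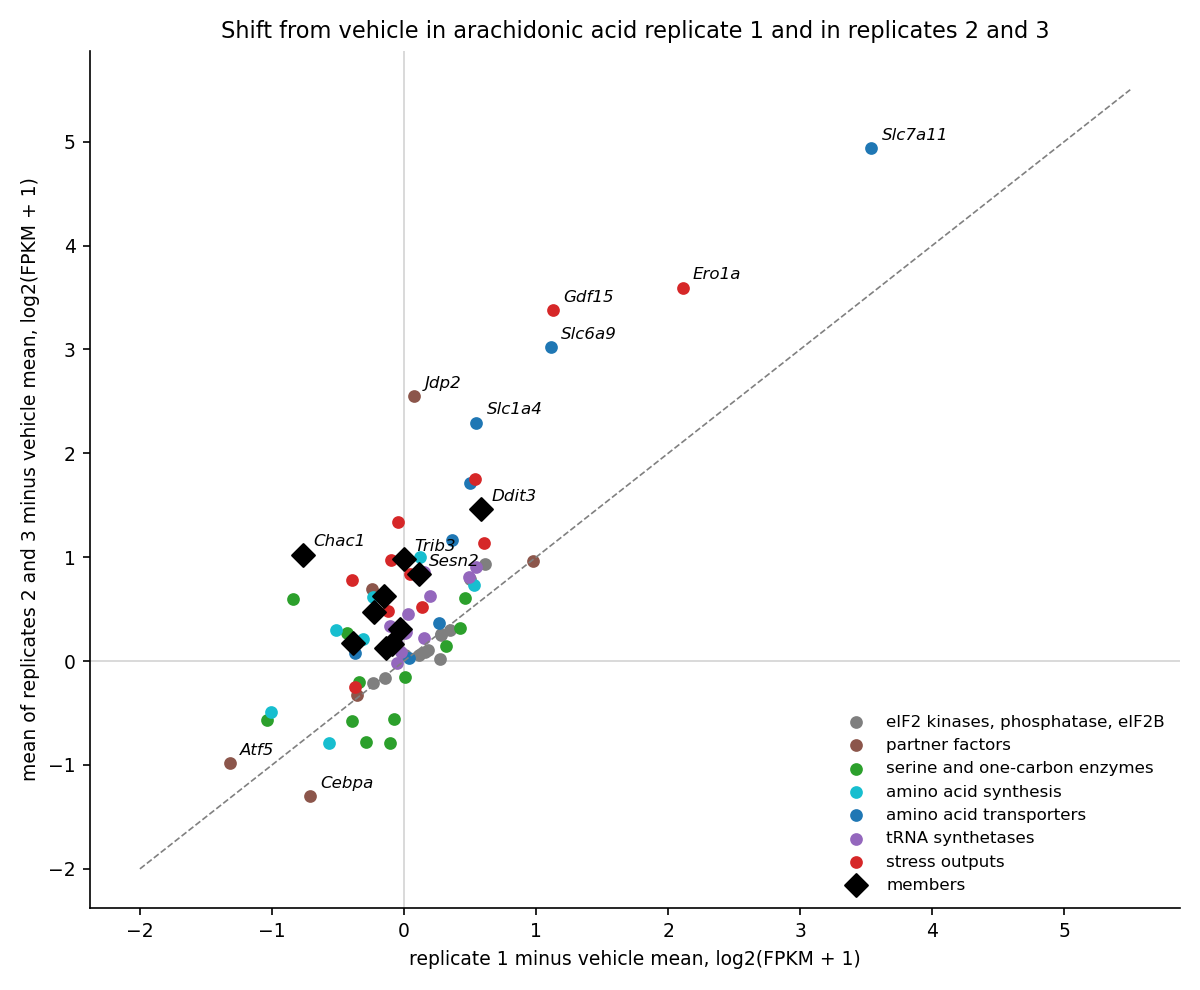
Shift from the vehicle mean on log2(FPKM + 1) in arachidonic acid replicate 1 (x axis) and in the mean of replicates 2 and 3 (y axis), 1 point per tested gene of the pathway lists, colored by list, with the 10 members as black diamonds and a dashed line of equal shift. All 10 diamonds lie above the dashed line, and Slc7a11 is the farthest point up and to the right.

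The number of calls is given by role below and in the plot of calls by list, which sets each list beside all tested genes.

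**Figure D4:**
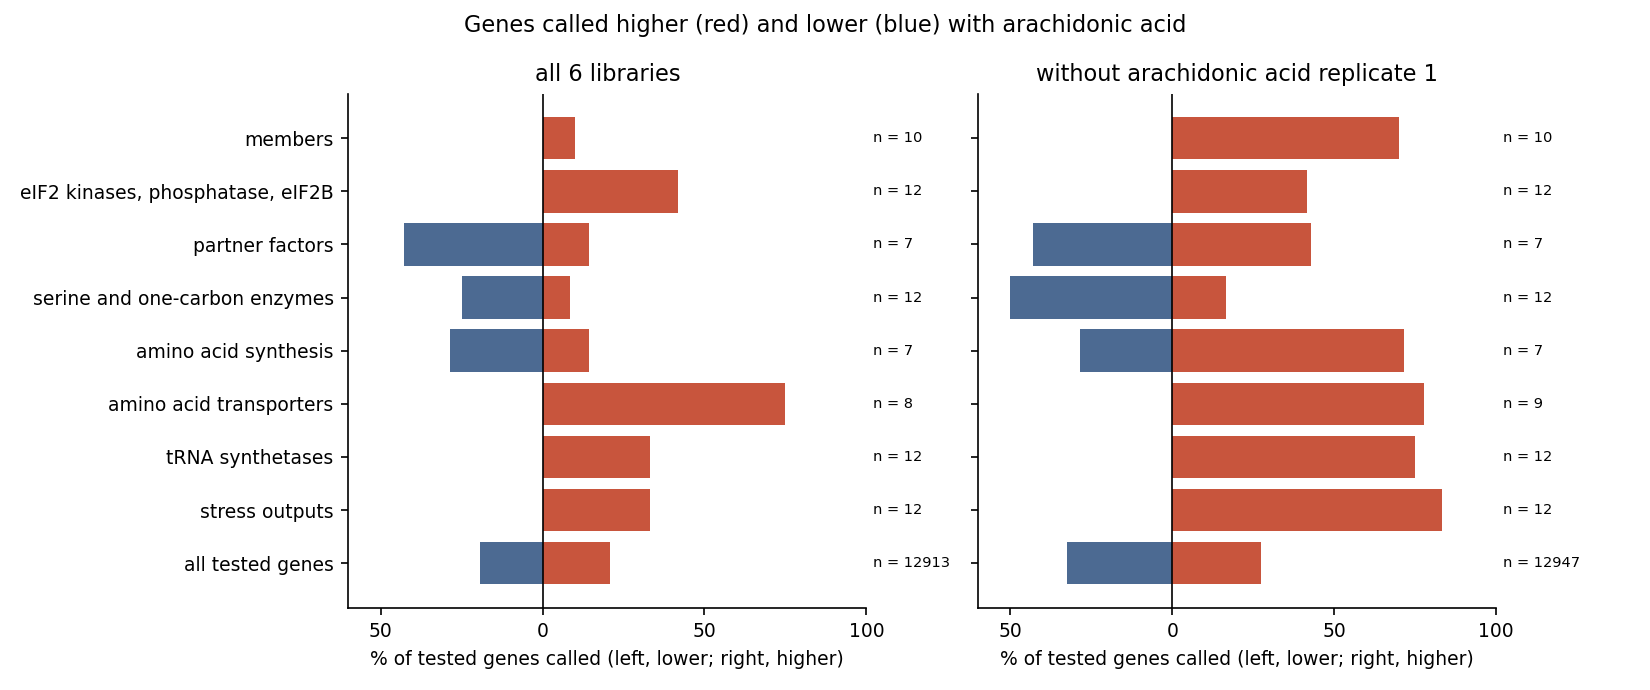
Percent of the tested genes of the members, of each of the 7 other pathway lists and of all tested genes called higher (red, to the right) and lower (blue, to the left) with arachidonic acid, for all 6 libraries and without arachidonic acid replicate 1, with the number tested beside each bar. Of the lists drawn, amino acid transporters have the longest red bar with all 6 libraries, 6 of 8 genes, and the serine and one-carbon list has 1 gene higher and 3 lower.

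Among 12 genes that set the phosphorylation of eIF2 and its recycling, 5 were higher (41.7%, against 20.8% of all tested genes). None was lower, where 19.4% of all tested genes were, and the median log2 fold change was 0.12. Ppp1r15b, which encodes the constitutive partner of the eIF2 phosphatase, went from 30.1 ± 1.002 to 49.5 ± 5.64 FPKM (log2 fold change 0.69, adjusted p = 0.00293). Ppp1r15a (GADD34), the stress-induced partner and an ATF4 target, went from 5.396 ± 0.867 to 10.4 ± 1.47 FPKM (0.83, adjusted p = 0.00625). Eif2b2, Eif2b3 and Eif2b5, subunits of the factor that reloads eIF2, were the other 3, at 1.21 to 1.26 times the vehicle mean. By limma on log2(FPKM + 1) none of the 4 kinase genes was called, with 12.2 ± 0.818 against 13.0 ± 0.619 FPKM for Eif2ak3 (PERK, adjusted p = 0.458) and 9.15 ± 0.581 against 7.74 ± 0.238 FPKM for Eif2ak4 (GCN2, adjusted p = 0.0787). Limma-voom on fragments recovered from the FPKM called Eif2ak4 lower (log2 fold change -0.246, adjusted p = 0.0485). Leaving out another single library left 2 to 5 of the 5 calls.

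The 7 transcription factors that partner or accompany ATF4 went both ways. With all libraries 1 was higher (14.3%, against 20.8% of all tested genes) and 3 were lower (42.9%, against 19.4%). Without treated replicate 1, 3 were higher (42.9%, against 27.5%) and 3 lower (42.9%, against 32.4%). Atf3, a stress-induced factor, measured 3.37, 5.66 and 2.40 FPKM with vehicle and 8.09, 8.09 and 7.98 FPKM with arachidonic acid (log2 fold change 0.97, adjusted p = 0.0174). All treated libraries were above all vehicle libraries, and replicate 1 stood level with the others. That call was lost without vehicle replicate 1 (0.0683) or arachidonic acid replicate 2 (0.0526) or 3 (0.0536).

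Atf5, a paralog of Atf4 with a like translational control, fell from 150.1 ± 14.2 to 70.0 ± 10.4 FPKM (log2 fold change -1.10, adjusted p = 0.00165), with its lowest value in treated replicate 1 at 59.5 FPKM. Cebpa (66.8 ± 5.30 to 31.2 ± 8.28 FPKM, adjusted p = 0.00469) and Cebpg (56.1 ± 1.22 to 44.2 ± 0.553 FPKM, adjusted p = 0.00514), a dimer partner of ATF4, also fell. Nupr1, a stress-induced chromatin protein gene, was not called with all libraries (126 ± 14.4 and 171 ± 56.7 FPKM, adjusted p = 0.268) and was called higher without treated replicate 1 (adjusted p = 0.000389). Jdp2, singled out after its values were seen, measured 1.24, 0.737 and 0.679 FPKM with vehicle and 0.970, 8.89 and 11.1 FPKM with arachidonic acid (adjusted p = 0.074, and 7.29e-06 without replicate 1). Treated replicates 2 and 3 were far above the other 4 libraries. Cebpb was at 14.0 ± 2.04 and 16.3 ± 3.04 FPKM (adjusted p = 0.329).

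Amino acid transporters had 6 of 8 tested genes higher (75.0%, against 20.8% of all tested genes) and none lower (against 19.4%). Their median log2 fold change was 1.1. Slc7a11, the cystine importer that feeds glutathione synthesis and a target of both ATF4 and NRF2, measured 6.10, 5.68 and 7.85 FPKM with vehicle and 86.2, 213 and 246 FPKM with arachidonic acid. Its lowest treated library was far above its highest vehicle library, and the log2 fold change was 4.48 (SE 0.38, adjusted p = 0.000828). Slc6a9, a glycine transporter gene, went from 7.31 ± 0.248 to 49.9 ± 28.6 FPKM (adjusted p = 0.0108), with replicate 1 at 16.9 FPKM.

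The partner subunit Slc3a2 (159 ± 7.10 to 425 ± 177 FPKM, adjusted p = 0.0185) and the leucine transporter gene Slc7a5 (80.5 ± 4.16 to 156 ± 46.9 FPKM, adjusted p = 0.0183) rose as well. The calls of both were lost when any 1 library other than treated replicate 1 was left out, with adjusted p of 0.0529 to 0.0644 and 0.052 to 0.0648. The glutamine and neutral amino acid transporter genes Slc38a2 and Slc1a4 were the remaining 2. Leaving out another single library left 2 or 3 of the 6 calls.

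Of 12 cytosolic aminoacyl-tRNA synthetase genes, named here by their present symbols, 4 were higher (33.3%, against 20.8% of all tested genes). None was lower, where 19.4% of all tested genes were, and the median log2 fold change was 0.20. Without treated replicate 1, 9 were higher (75.0%, against 27.5%). Gars1 (154 ± 5.96 to 253 ± 32.2 FPKM, log2 fold change 0.70, adjusted p = 0.00333) and Wars1 (58.8 ± 2.09 to 103 ± 14.2 FPKM, 0.78, adjusted p = 0.00294) charge glycine and tryptophan. Their calls were kept without any single library. The calls of Aars1 (adjusted p = 0.0232) and Cars1 (0.0423) were lost without any 1 library other than treated replicate 1, at 0.0624 to 0.0844 and 0.0897 to 0.123.

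Serine and one-carbon genes outside the 10 went both ways: of 12 tested, 1 was higher (8.33%, against 20.8% of all tested genes) and 3 were lower (25.0%, against 19.4%), with a median log2 fold change of -0.18. Without treated replicate 1, 2 of the 12 were higher and 6 lower, where 27.5% and 32.4% of all tested genes were. Slc25a32 was listed at 0 in every library. Mthfd1l, which makes formate in mitochondria downstream of Mthfd2, rose from 21.9 ± 1.60 to 32.7 ± 2.14 FPKM (0.56, adjusted p = 0.00394). Lower were the cytosolic enzyme genes Shmt1 (155 ± 0.902 to 103 ± 21.6 FPKM, adjusted p = 0.0135) and Aldh1l1 (17.3 ± 0.483 to 10.2 ± 2.04 FPKM, adjusted p = 0.00871) and the mitochondrial Mthfd2l. Psph, the last enzyme of serine synthesis, was at 35.8 ± 2.98 and 37.8 ± 11.1 FPKM (adjusted p = 0.895). The call of Shmt1 was lost without vehicle replicate 1 (0.054) or treated replicate 3 (0.0502).

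Of 7 enzymes of other amino acid routes, 1 was higher (14.3%, against 20.8% of all tested genes) and 2 were lower (28.6%, against 19.4%). Got1, the cytosolic aspartate aminotransferase gene, rose from 54.4 ± 3.13 to 86.9 ± 8.50 FPKM (0.66, adjusted p = 0.00276). Aldh18a1, which starts proline synthesis from glutamate, fell from 326 ± 16.7 to 199 ± 18.4 FPKM (-0.72, adjusted p = 0.00185). Cth, which makes cysteine from cystathionine, fell from 161 ± 13.8 to 102.2 ± 20.3 FPKM (adjusted p = 0.0157), a call lost without vehicle replicate 1 (0.0649) or 3 (0.0592). Without treated replicate 1, 5 were higher (71.4%, against 27.5% of all tested genes), among them Pycr1 (adjusted p = 0.0141) and Cbs (0.000552).

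Among 13 downstream stress genes, of which 12 were tested, 4 were higher (33.3%, against 20.8% of all tested genes). None was lower, where 19.4% of all tested genes were, and the median log2 fold change was 0.59. Without treated replicate 1, 10 were higher (83.3%, against 27.5%). Ero1a, an oxidase that drives disulfide formation in the endoplasmic reticulum, measured 124, 172 and 117 FPKM with vehicle and 590, 1769 and 1539 FPKM with arachidonic acid (log2 fold change 3.10, adjusted p = 0.00266). Treated replicate 1 was the lowest of its group and still 4.28 times the vehicle mean. Gdf15, a secreted stress hormone gene, went from 16.2 ± 4.37 to 128 ± 80.2 FPKM (adjusted p = 0.0148), with 35.7 FPKM in replicate 1, a call lost without vehicle replicate 2 (0.0536) or 3 (0.0572). Vldlr, a lipoprotein receptor gene, went from 14.3 ± 2.34 to 40.6 ± 17.3 FPKM (adjusted p = 0.0195), lost without vehicle replicate 1 (0.0722) or 3 (0.0702) or treated replicate 2 (0.0566) or 3 (0.0672). Tnfrsf10b, the death receptor gene induced by CHOP and by p53, went from 7.42 ± 0.543 to 15.6 ± 3.28 FPKM (adjusted p = 0.00514). Ddit4 (adjusted p = 0.363) and Stc2 (0.106) passed, of the alternatives, only without treated replicate 1 (0.000971 and 0.000144), and Fgf21 did not pass the filter.

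Several members have a paralog with the same enzymatic or binding activity but a different place or control. Of the 6 tested paralogs, 4 fell (66.7%, against 19.4% of all tested genes) and 1 rose (16.7%, against 20.8%). Sesn1, a p53 target, fell from 15.4 ± 1.21 to 8.16 ± 1.75 FPKM (log2 fold change -0.85, adjusted p = 0.00557), and Sesn3 fell from 27.8 ± 1.98 to 17.1 ± 3.81 FPKM (adjusted p = 0.0133; 0.0585 without vehicle replicate 1). The ratio of Sesn2 to Sesn1 in FPKM was 0.893, 0.798 and 0.605 with vehicle and 1.24, 2.79 and 3.24 with arachidonic acid. Sesn2 was thus below Sesn1 in every vehicle library and above it in every treated library.

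The ratio of mitochondrial Shmt2 to cytosolic Shmt1 was 1.01, 0.987 and 1.09 with vehicle and 1.23, 2.19 and 2.21 with arachidonic acid. Mthfd2 over Mthfd2l was 9.81, 9.70 and 9.84 with vehicle and 10.1, 15.3 and 19.1 with arachidonic acid, where Mthfd2l itself fell from 12.3 ± 0.856 to 8.29 ± 0.712 FPKM (adjusted p = 0.00714) and Mthfd2 was not called. In these ratios, and in Sesn2 over Sesn3, every treated library including replicate 1 exceeded every vehicle library. Chac1 over Chac2 did not separate the groups, at 1.5, 1.35 and 0.557 against 0.518, 1.21 and 1.49, and Chac2 was higher (adjusted p = 0.0414; 0.0966 to 0.128 without any 1 library other than treated replicate 1). Of the 5 ratios, 4 gave an exact permutation p of 0.1, two-sided, the smallest that 3 against 3 libraries can give, and Chac1 over Chac2 gave 0.7. Trib1 was not called (adjusted p = 0.149) and Trib2 was near 0.

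**Figure D5:**
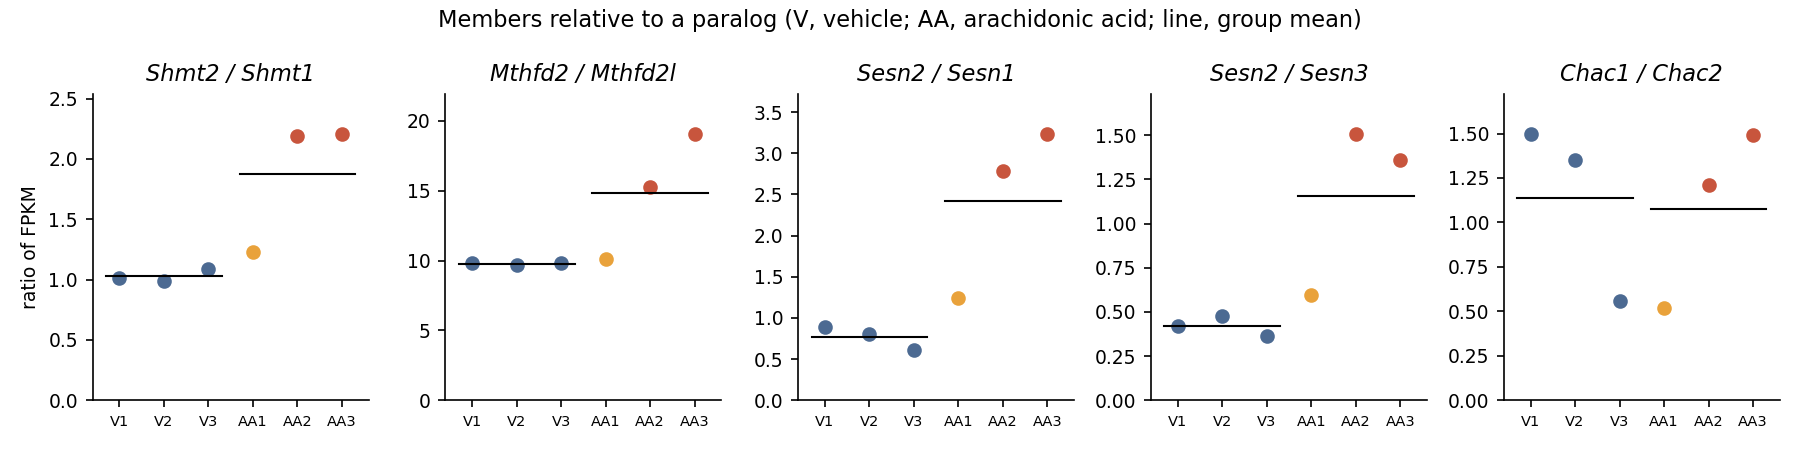
Ratio of FPKM between a member and its paralog (y axis, linear from 0) in each library (x axis), in the colors of the plot of member levels, with a line at each group mean. All treated libraries lie above all vehicle libraries for Shmt2 over Shmt1, Mthfd2 over Mthfd2l, Sesn2 over Sesn1 and Sesn2 over Sesn3, and the groups overlap for Chac1 over Chac2.

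Genes of neighbouring stress pathways give the setting of these values. Of 15 genes of the other arms of the unfolded protein response, 4 were higher (26.7%, against 20.8% of all tested genes) and 2 lower (13.3%, against 19.4%), and 6 were higher (40.0%) and 5 lower (33.3%) without treated replicate 1, where 27.5% and 32.4% of all genes were. The 4 higher genes were Atf6 (9.58 ± 0.694 to 15.5 ± 1.9 FPKM, adjusted p = 0.00609), Dnajb9 (12.5 ± 0.633 to 17.1 ± 0.913 FPKM, 0.00755), Edem1 (0.0187) and Hyou1 (0.029). The 2 lower genes were Xbp1 (209 ± 14.0 to 159 ± 1.23 FPKM, adjusted p = 0.00558) and Ern2 (4.24 ± 0.863 to 1.59 ± 0.52 FPKM, 0.00848). The chaperone gene Hspa5 (BiP) was not called, at 425 ± 17.5 and 395 ± 47.0 FPKM (adjusted p = 0.39). Leaving out another single library gave 2 or 3 higher calls and 2 lower calls. Of 7 mitochondrial stress genes 2 were higher (28.6%, against 20.8% of all tested genes) and 1 lower (14.3%, against 19.4%). Higher were the protease genes Lonp1 (96.5 ± 4.35 to 157 ± 18.9 FPKM, adjusted p = 0.00319) and Oma1 (15.7 ± 2.12 to 28.4 ± 3.90 FPKM, adjusted p = 0.00511). The chaperonin gene Hspe1 was lower (adjusted p = 0.0449). Without treated replicate 1, 2 were higher (28.6%, against 27.5%) and 3 lower (42.9%, against 32.4%). The call of Hspe1 was lost with the replicate block (0.0976), TPM (0.0881), quantile normalization (0.0905) and median-of-ratios factors (0.0639), and without vehicle replicate 1 (0.135) or 2 (0.134) or treated replicate 2 (0.14) or 3 (0.0698). All 6 NRF2 targets and all 5 p53 targets were higher, where 20.8% of all tested genes were. Without the filter on low values, the fit and the adjustment of p covered all 53953 rows. The lists then held fewer higher calls, with 1 for transporters, 1 for stress outputs, 2 for synthetases, 3 for the eIF2 genes, 4 for NRF2 targets and 3 for p53 targets. Of the pathway and stress genes described above, the calls of Ppp1r15a, Atf3, Cebpa, Slc6a9, Slc3a2, Slc7a5, Slc38a2, Aars1, Cars1, Shmt1, Aldh1l1, Cth, Gdf15, Vldlr, Tnfrsf10b, Sesn1, Sesn3, Chac2, Atf6, Ern2, Oma1 and Hspe1 were lost there, at adjusted p of 0.0541 to 0.288. The calls of Eif2b3, Slc1a4, Edem1 and Hyou1 were lost there as well.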

How the data were processed

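RNA of 6 organoid libraries, 3 per group, was sequenced. The deposited values are FPKM that the authors made, as inferred from the values: FPKM times transcript length (GENCODE M21) fell on whole multiples of a step per library, which gave the depth (of values below 100 fragments, 96.3% to 96.7% came within 0.1 of an integer). The submitters' processing notes name HISAT2 2.0.5, featureCounts 1.5.0-p3 and StringTie 1.3.3b. Build, annotation and strand use were not given in the sources used here; overlapping or near-identical genes are therefore uncertain.

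From the FPKM, log2(FPKM + 1) was fitted with limma 3.58.1 in R 4.3.3, with a variance trend, over genes averaging 1 FPKM or more. Two-sided p-values were adjusted (Benjamini-Hochberg) across the 12913 genes kept, and 0.05 was the threshold. Fold changes are on the log2(FPKM + 1) scale and understate changes of low genes. The fit was tested on simulated data. The members, the gene lists and the alternatives were chosen with earlier results of these data known. All members are named, and so are the genes with the 4 smallest p-values of most other lists and a set of pathway genes. NRF2 and p53 targets are given as counts only, and the mitochondrial stress genes are named in part. Promoter windows and coordinates come from RefSeq for GRCm38.p6, matched by symbol. The alternatives changed the pseudocount, filter, scaling, test, replicate block and the libraries used.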

Additional observations from a re-analysis of the deposited data

How the results depend on the processing

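None of 14 alternatives called a member lower. The number of members called higher was 1 as reported, and 0 with no filter on low values (fit and adjustment of p over 53953 rows). That number was 2 with TPM, and 0 to 7 when a library was left out. The count was 7 without arachidonic acid replicate 1, and 0 without vehicle replicate 1 or 3 or arachidonic acid replicate 2 or 3. All genes called higher numbered 2690 as reported, 1269 with no filter and 1712 to 3554 when a library was left out, and those called lower 2502, 786 and 1245 to 4192. With the replicate number as a block the counts were 2263 higher and 1998 lower, with 1 member higher. Deviations of same-numbered libraries correlated at -0.0811, 0.21 and -0.0623, and of others at -0.177 to 0.19, so the numbers were not taken as pairs.

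The log2 fold changes that changed sign, given with the range over left-out libraries, were all of genes not called in the reported fit. The log2 fold change of Atf4 was 0.163 without arachidonic acid replicate 1 and -0.0192 without replicate 3, that of Phgdh was -0.022 with quantile normalization, -0.0341 when vehicle replicate 2 was left out, and 0.13 and -0.0679 without arachidonic acid replicates 1 and 3, and that of Mthfd2 was 0.0459 with TPM, 0.0056 with median-of-ratios factors, 0.0453 when vehicle replicate 1 was left out, and 0.173 and -0.164 without arachidonic acid replicates 1 and 3. Psph gave -0.0104 with quantile normalization, and 0.274, -0.0286, -0.00416 and -0.155 without arachidonic acid replicate 1, vehicle replicate 2 and arachidonic acid replicates 2 and 3. Aldh1l2 gave 0.594, -0.196 and -0.05 without arachidonic acid replicates 1, 2 and 3, and Pycr1 gave 0.302, -0.0708 and -0.145 without those libraries and -0.017 without vehicle replicate 3. The log2 ratio difference of Chac1 over Chac2, -0.0892 as reported, was 0.174 and 0.0991 when vehicle replicates 1 and 2 were left out, and 0.37 without arachidonic acid replicate 1. The cause was not tested. Of 54 other named genes that were called, 24 lost the call with no filter, 10 to 14 without 1 of the 5 libraries other than arachidonic acid replicate 1, and 1 to 3 under quantile normalization, the replicate block, TPM, voom or median-of-ratios factors. Precision is limited by 3 libraries per group, and 350 fragments or more lay behind each member's value.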
